A study of Betula luminifera with 4 samples.

Results

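Shoots of the birch Betula luminifera that received no phosphate (LP shoots) were set against shoots that received it (CK shoots), over genes whose protein match is from a plant. A gene was taken when its annotation named walnut (Juglans) or when its best Swiss-Prot entry was from Arabidopsis thaliana. Walnut was named for 21925 genes, Arabidopsis for 15417 and both for 10514, so 26828 of the 76899 assembled genes were taken. Contigs of 500 bp or more were weighed first, and there were 16706 of these. All plants belonged to 1 clone, G49#, propagated in tissue culture, so no genetic variation is sampled. Plantlets 2 months old were moved to sterile sand and given a modified Murashige and Skoog salt solution with phosphate for 2 weeks, then deionized water for 2 weeks. LP plants then received the solution with 0 mM KH2PO4, its potassium made up with K2SO4, and CK plants received it with 1.25 mM KH2PO4. The 54 plants stood in a randomized layout of 3 blocks and were given 20 mL of solution a day. Stem RNA and leaf RNA were mixed in equal amounts into 1 poly(A) library per treatment. How many plants went into a library, and for how long they were treated, is not given in the sources used here.

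Phosphate is needed for nucleic acids, membrane lipids, ATP and sugar phosphates, and plants that lack it switch on a set of genes under MYB factors of the PHR family, held back by SPX proteins when phosphate is plentiful. The set includes phosphate importers, secreted and vacuolar acid phosphatases, and enzymes that replace membrane phospholipids with galactolipids and sulfolipids. In leaves, phosphate shortage is also known for slower growth, altered starch and sugar levels, and remobilization of phosphate from old to young tissue.

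Values are TPM (transcript shares scaled to a fixed total and corrected for length) as deposited. Log2 ratios are LP over CK after the LP column was divided by 1.0099, the median ratio over 19480 plant-matched genes of at least 1 TPM in both shoot libraries, and they carry a pseudocount of 1 TPM. Folds carry the same rescaling and no pseudocount. The words higher and lower stand for a log2 ratio of at least 1 in size, a 2-fold change, in a gene that reached 1 TPM in a shoot library, and level stands for a log2 ratio within 0.5 of 0. Each treatment is a single library. Replicate error is therefore unknown, and a difference describes these 2 libraries, with no replicate check and no p-value. At 500 bp, 1 TPM stood for 9.78 fragments in the LP library and 7.81 in the CK library, and 3 fragments were 0.307 TPM in LP and 0.384 TPM in CK. A contig of that length at 10 TPM had a relative counting error of 10.1% in LP and 11.3% in CK. Several contigs can carry 1 protein name and may share reads, so contigs are given with their length. With TPM summed over the contigs of a name, 5 of the 225 contigs named below changed direction and 30 no longer passed the rule. In RNA from whole shoots, fewer cells of a type and less RNA per cell cannot be told apart.

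Of the 16706 contigs, 162 were below 1 TPM in both shoot libraries, and 16544 could be called. LP shoots had 2492 higher genes (15.1%) and 2340 lower genes (14.1%), and 11712 lay within the rule. The median log2 ratio was 0.04, with quartiles of -0.56 and 0.64. Changes of 4-fold or more were fewer, at 648 higher and 719 lower. Listed at 0 were 110 of the 16544 in LP shoots and 267 in CK shoots. Plant-matched genes of any length held 59.7% of all TPM in LP shoots and 63.8% in CK shoots.

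**Figure D1:**
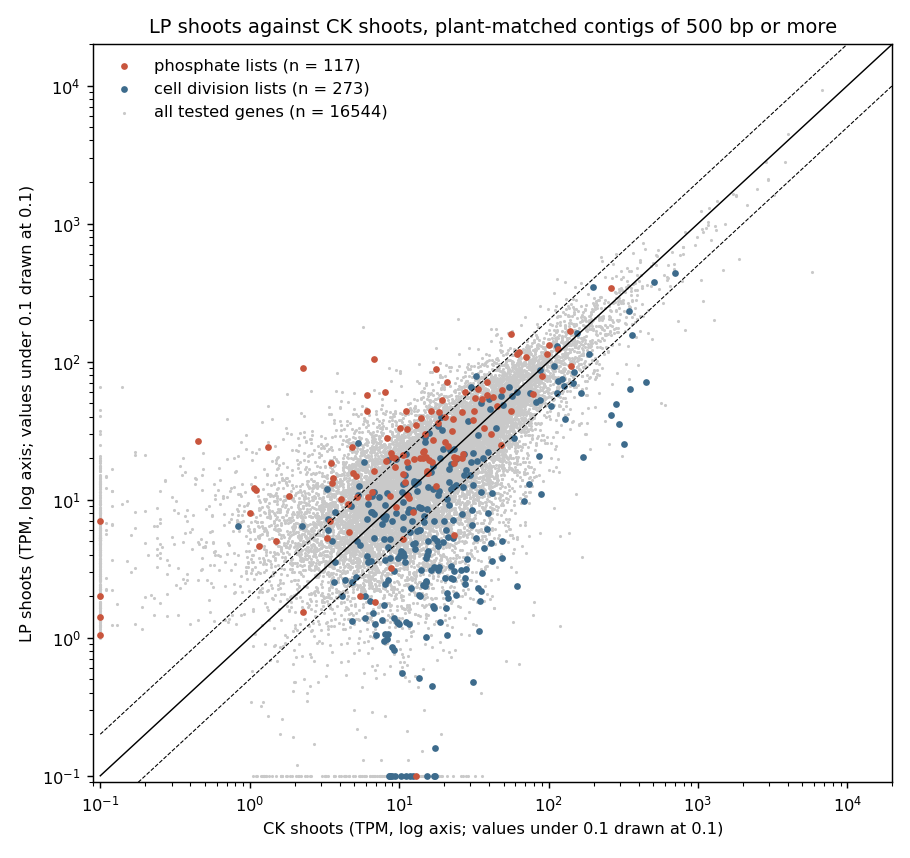
Each point is a plant-matched contig of 500 bp or more, with its TPM in LP shoots (y) and CK shoots (x) on log axes; the solid line marks equal values and the dashed lines a 2-fold difference. The 117 members of 6 phosphate lists (red) lie mostly above the line of equality. The 273 members of 4 cell division lists (blue) lie mostly below it. Both lie inside the cloud of 16544 genes (grey). Phosphate lists not drawn are phosphate-saving glycolysis and respiration (median 0.4), other phosphate-releasing enzymes (-0.2) and phospholipid synthesis (-0.52).

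The share of genes past the rule depended on contig length. Among contigs of 400 to 499 bp, just outside the length limit, 33.2% were higher and 26.3% lower in LP shoots. Among contigs of 500 to 599 bp, just inside it, 27.2% were higher and 23.9% lower. The shares shrank to 11.3% and 12% at 1000 to 1999 bp and to 9.22% and 7.1% at 2000 bp or more. The shortest class, 200 to 299 bp, had 46.5% and 40.1%, and 67.7% of its genes were listed at 0 in 1 of the libraries. Counts of a list that is rich in short contigs therefore stand against a higher background than 15.1% and 14.1%.

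**Figure D2:**
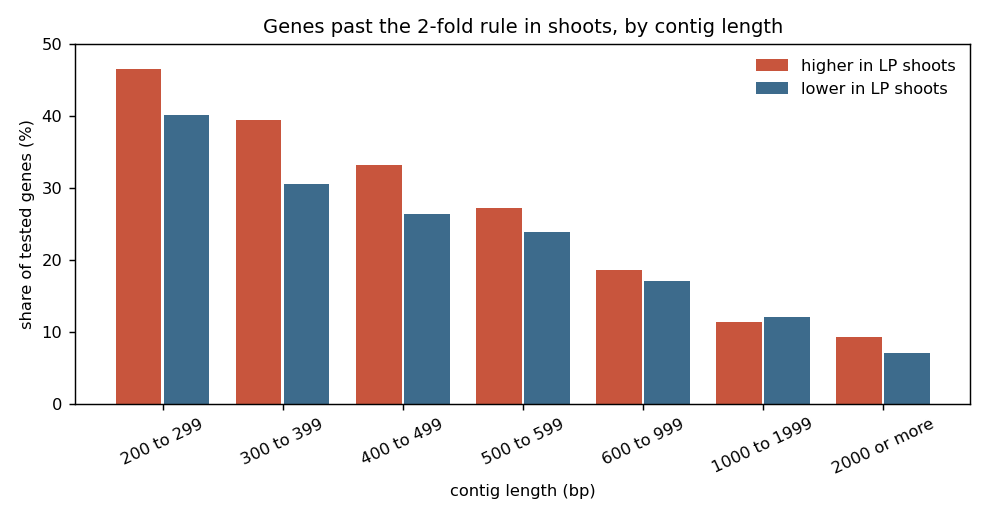
Bars give the share of plant-matched genes called higher (red) or lower (blue) in LP shoots within each class of contig length in bp. Both shares fall with length, with 46.5% and 40.1% in the shortest class and 9.22% and 7.1% in the longest.

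The tissue was checked against marker genes. The activase of Rubisco, RCA, which marks leaf mesophyll, stood at 4472 TPM in LP shoots and 3997 TPM in CK shoots, against 15.4 TPM in LP roots and 4.74 TPM in CK roots. Of 9 mesophyll markers 3 were found under these names, and their contigs summed to 5252 TPM in LP shoots and 4961 TPM in CK shoots. The main Rubisco small subunit contig (RBCS1) lies outside the plant-matched set, and with it the sum was 9856 TPM in LP shoots and 12940.4 TPM in CK shoots. Markers of phloem, wood, epidermis and dividing cells had smaller sums in LP shoots. Phloem markers summed to 848 TPM in LP shoots and 2256 TPM in CK shoots, with 1 of 18 contigs higher and 6 lower. Vascular and wood markers gave 337 TPM in LP and 609 TPM in CK, with 2 of 21 higher and 8 lower. Epidermal markers summed to 178 TPM in LP shoots and 492 TPM in CK shoots, with 0 of 7 higher and 2 lower, and markers of dividing cells to 65.4 TPM in LP and 115 TPM in CK, with 0 of 4 higher and 3 lower. Root markers were close by sum, at 91.3 TPM in LP shoots and 101 TPM in CK shoots, with 1 of 5 contigs higher and 2 lower. Only 3 of 10 root markers were found. RHD3, the most abundant in LP shoots, was about as high in shoots (43.1 TPM in LP, 27.9 TPM in CK) as in roots (40.3 and 26.3 TPM). The root sum is therefore no check for root tissue.

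Phosphate importers and exporters were higher in LP shoots more often than lower. Of 25 phosphate transporter contigs 10 were higher, 3 lower and 12 within the rule, which is 40% and 12% against 15.1% and 14.1% of all genes. Their median log2 ratio was 0.67, against 0.04 for all genes. The PHT1 family, proton-coupled importers of the plasma membrane, held contigs on both sides. PHT1-1 (1102 bp) stood at 60.1 TPM in LP shoots and 8.07 TPM in CK shoots, 7.38-fold higher. In roots the same contig was lower, at 2.98 TPM in LP roots and 27.9 TPM in CK roots. PHT1-3 (712 bp) and the long PHT1-4 contig (2076 bp) also combined a higher shoot value with a lower root value. A PHT1-4 contig of 610 bp went the other way, with 0.08 TPM in LP shoots, about a single fragment, and 12.9 TPM in CK shoots. Summed over its name PHT1-4 had a log2 ratio of 0.67. PHT1-9 (758 bp) was at 1.82 TPM in LP shoots and 6.92 TPM in CK shoots, 3.84-fold lower.

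PHO1 proteins export phosphate from cells, in roots into the xylem. Both long PHO1 contigs were higher: that of 1526 bp had 38.9 TPM in LP shoots and 13.9 TPM in CK shoots, and that of 1370 bp had 19 TPM in LP and 8.21 TPM in CK. PHO1-H10, a homolog of PHO1, was at 14.3 TPM in LP shoots and 3.6 TPM in CK shoots, 3.94-fold higher, and it was higher in LP roots too (35.4 TPM, against 4.43 TPM in CK roots). Carriers of organelles did not share one direction. The plastid anion transporter ANTR4 was 2.66-fold higher, at 34.9 TPM in LP shoots and 13 TPM in CK shoots. ANTR5, of the same family, was 2.76-fold lower, at 3.22 TPM in LP shoots and 8.81 TPM in CK shoots. The mitochondrial phosphate carrier MPT3 had 93 TPM in LP shoots and 141 TPM in CK shoots (log2 ratio -0.61), and the plastid carrier PHT2-1 had 29.7 TPM in LP and 41.4 TPM in CK (-0.48), both within the rule. At4g22990, an SPX protein of the vacuolar membrane, had 38.7 TPM in LP shoots and 22.8 TPM in CK shoots (0.73).

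None of the regulators of the phosphate response passed the rule as lower. Of 17 regulator contigs 6 were higher (35.3%) and 0 lower, beside 15.1% and 14.1% of all genes. Their median log2 ratio was 0.89. Of 3 SPX contigs 1 was higher and 0 lower. PHR2, a MYB factor that activates phosphate starvation genes in rice, had 60.2 TPM in LP shoots and 27.6 TPM in CK shoots, 2.16-fold higher. Its relatives lay within the rule, PHL1 at 62.8 TPM in LP shoots and 48.6 TPM in CK shoots and PHL2 at 24.8 TPM in LP and 48.1 TPM in CK (log2 ratio -0.94). WRKY75, a factor induced by phosphate starvation in Arabidopsis, had the widest contrast of those named here. Its contig of 682 bp was at 26.6 TPM in LP shoots and 0.45 TPM in CK shoots, a log2 ratio of 4.24, and its contig of 615 bp was at 6.96 TPM in LP shoots and listed at 0 in CK shoots. WRKY6, a repressor of PHO1 in Arabidopsis, was at 16.1 TPM in LP shoots and 6.83 TPM in CK shoots, 2.33-fold higher. UBC24, the ubiquitin-conjugating enzyme also called PHO2 that sends phosphate transporters to breakdown, came just under the rule in both contigs. Its log2 ratios were 0.94 (2074 bp, 40 TPM in LP shoots and 20.1 TPM in CK shoots) and 0.89 (2352 bp, 63.5 TPM in LP and 33.6 TPM in CK). Of the SPX proteins, which sense phosphate through inositol pyrophosphates, an SPX2 contig of 1202 bp was 9.31-fold higher, with 57 TPM in LP shoots and 6.06 TPM in CK shoots. A more abundant SPX2 contig (1115 bp, log2 ratio 0.86) and SPX4 (0.15) stayed within the rule. The SUMO ligase SIZ1, a modulator of the response in Arabidopsis, was 3.34-fold higher. LPR1, a multicopper oxidase that acts in Arabidopsis root tips under low phosphate, was level at 33.1 TPM in LP shoots and 36.9 TPM in CK shoots.

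Purple acid phosphatases, which release phosphate from organic esters, gave 12 higher contigs of 29 (41.4%) and 0 lower, with a median of 0.80, where 15.1% of all genes were higher and 14.1% lower. Over contigs of 1000 bp or more 4 of 18 were higher (22.2%), where 10.8% of all genes of that length were higher and 10.7% lower. PAP3 (1251 bp) was at 105 TPM in LP shoots and 6.74 TPM in CK shoots, 15.5-fold higher, while another PAP3 contig (1213 bp) was level at 47.8 TPM in LP and 44.9 TPM in CK. PAP24 (609 bp), named as a probable inactive member of the family, was 18.1-fold higher, with 24.1 TPM in LP shoots and 1.32 TPM in CK shoots. PAP17, a phosphatase known from Arabidopsis as induced both by phosphate starvation and in ageing leaves, was higher in 2 contigs. The contig of 741 bp had 11.8 TPM in LP shoots and 1.1 TPM in CK shoots, and that of 547 bp had 10.6 TPM in LP and 1.82 TPM in CK. PAP24 and the PAP17 contigs were picked out after their values were seen. PAP27, also named as a probable inactive member, was 3.93-fold higher, and PAP18 was level. PAP26, the main vacuolar acid phosphatase of Arabidopsis, was split: its contig of 546 bp was 3.22-fold higher, at 33.1 TPM in LP shoots and 10.2 TPM in CK shoots, and its contig of 632 bp was level at 78 TPM in LP and 89.8 TPM in CK.

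Other enzymes that free phosphate did not lean one way. Of 23 contigs 3 were higher (13%) and 4 lower (17.4%), near the 15.1% and 14.1% of all genes. Their median was -0.20. The pyrophosphatase At1g17710 was higher, at 96.8 TPM in LP shoots and 28.8 TPM in CK shoots, as was the apyrase APY6, at 56.1 TPM in LP and 26.1 TPM in CK. Acid phosphatase APS1 (1601 bp) was 3.19-fold lower, with 10.5 TPM in LP shoots and 33.2 TPM in CK shoots. A contig named extracellular ribonuclease LE (528 bp), a tomato enzyme known there for its induction without phosphate, was listed at 0 in LP shoots and stood at 17 TPM in CK shoots. The soluble pyrophosphatase PPA4, the most abundant of those named, was level at 216 TPM in LP shoots and 189 TPM in CK shoots.

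**Figure D3:**
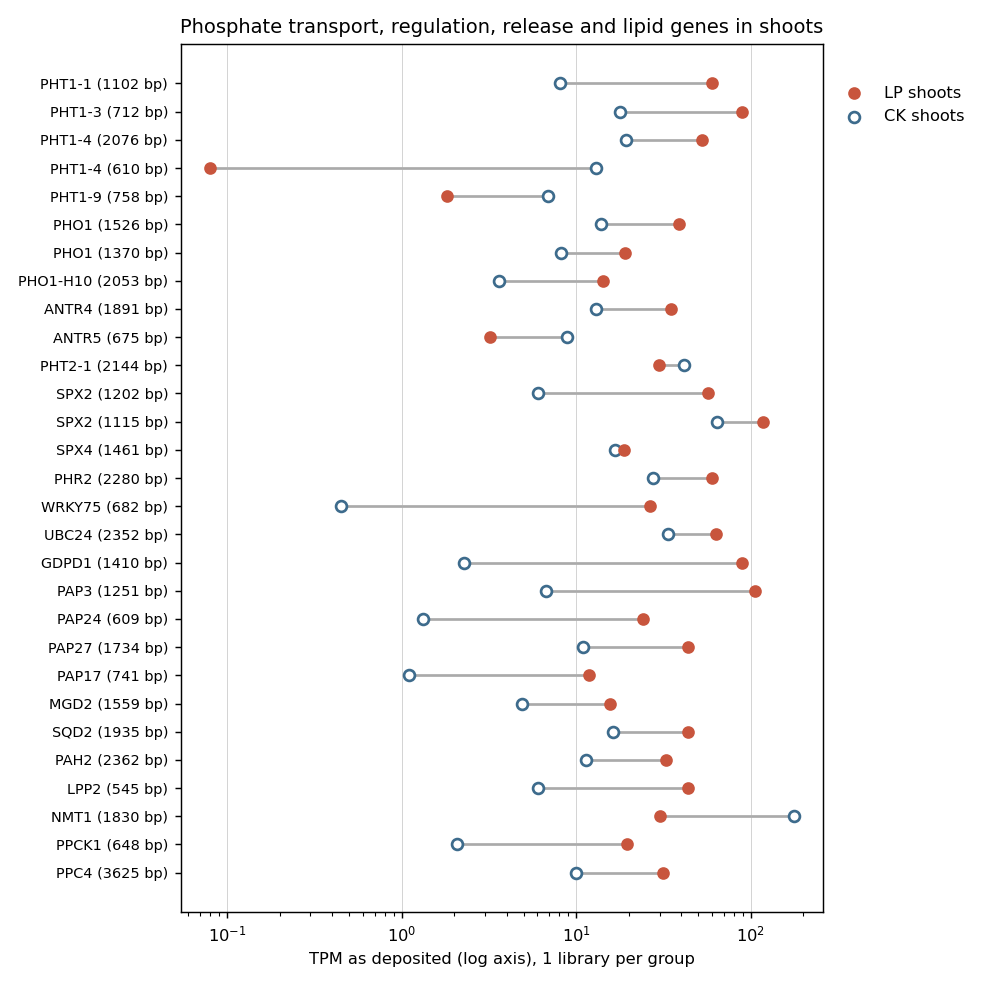
TPM in LP shoots (filled red) and CK shoots (open blue) on a log axis for 29 named contigs of phosphate transport, regulation, release and lipid metabolism, 1 library per group. LP lies to the right in most lines. The PHT1-4 contig of 610 bp, PHT1-9, ANTR5, PHT2-1 and NMT1 are the ones with CK to the right. The contigs drawn were picked after their values were seen. Others that were lower in LP shoots, such as APS1, the ribonuclease LE contig, PECT1 and PSD3, are not drawn.

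Lists of membrane lipid turnover held named members on both sides of the rule. Of 7 galactolipid and sulfolipid contigs 3 were higher (42.9%) and 0 lower, against 15.1% and 14.1% of all genes. Their median was 0.86. MGD2, a galactolipid synthase that Arabidopsis uses mainly under phosphate starvation, had 15.6 TPM in LP shoots and 4.9 TPM in CK shoots, 3.16-fold higher. A contig named after the constitutive chloroplast enzyme of the same step (2175 bp) was level at 18.5 TPM in LP shoots and 23.4 TPM in CK shoots. DGD1, which adds the second galactose, had 159 TPM in LP shoots and 56 TPM in CK shoots in a contig of 574 bp, and 113 TPM in LP and 61.4 TPM in CK (log2 ratio 0.86) in one of 2450 bp. SQD2, the last enzyme of sulfolipid synthesis, was 2.66-fold higher, and SQD1, the step before it, came under the rule (0.83). Among phospholipases and glycerophosphodiesterases, which strip phospholipids, 10 of 36 contigs were higher (27.8%) and 2 lower (5.56%), with a median of 0.47. GDPD1, which cleaves the head groups left after deacylation, had 89.3 TPM in LP shoots and 2.28 TPM in CK shoots, 38.8-fold higher. GDPD6, of the same family, was 2.31-fold higher, at 43 TPM in LP and 18.4 TPM in CK. The phosphatidate phosphatase PAH2, which makes the diacylglycerol that galactolipids are built on, had 32.7 TPM in LP shoots and 11.3 TPM in CK shoots, and the lipid phosphate phosphatase LPP2 (545 bp) had 43.5 TPM in LP and 6.05 TPM in CK. Phospholipase D alpha 1 (PLD1), at 133 TPM in LP shoots and 101 TPM in CK shoots, NPC1, at 167 TPM in LP and 138 TPM in CK, and GDPDL3, at 341 TPM in LP and 261 TPM in CK, were abundant and within the rule.

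Phospholipid synthesis gave 2 higher (11.1%) and 5 lower (27.8%) contigs of 18, against 15.1% and 14.1% of all genes. The median was -0.52. NMT1, the methyltransferase that makes phosphocholine, had 30 TPM in LP shoots and 177 TPM in CK shoots, 5.96-fold lower. PECT1, which activates phosphoethanolamine, was lower in 2 contigs, with 39.8 TPM in LP shoots and 96.1 TPM in CK shoots for that of 2174 bp and 16.9 TPM in LP and 48.9 TPM in CK for that of 1704 bp. The decarboxylase PSD3, another source of phosphatidylethanolamine, had 20.1 TPM in LP shoots and 42.3 TPM in CK shoots. The members called higher were the inositol lipid synthase PIS1, at 25.6 TPM in LP shoots and 9.74 TPM in CK shoots, and a choline kinase (At1g74320), at 17.6 TPM in LP and 4.96 TPM in CK. CCT2, which activates phosphocholine, was level at 65.3 TPM in LP shoots and 55.6 TPM in CK shoots. Over contigs of 1000 bp or more the median of this list was -0.10.

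Enzymes that let carbon flow past phosphate-consuming steps of glycolysis and respiration had 5 of 18 contigs higher (27.8%) and 0 lower. The median was 0.40, and 15.1% of all genes were higher and 14.1% lower. At 1000 bp or more 2 of 15 were higher (13.3%), near the 10.8% of all genes of that length. All named members above the rule belong to the step at phosphoenolpyruvate. The carboxylase PPC4 had 31.3 TPM in LP shoots and 9.97 TPM in CK shoots, 3.11-fold higher. PPCK1, named as a kinase of phosphoenolpyruvate carboxylase, was higher in 2 contigs. That of 648 bp had 19.5 TPM in LP shoots and 2.07 TPM in CK shoots, and that of 623 bp had 47.1 TPM in LP and 16.4 TPM in CK. Which of the carboxylases named here it acts on was not tested. A contig named PPCC was at the edge of the rule, with 55.7 TPM in LP shoots and 27.1 TPM in CK shoots and a 2.04-fold difference. The pyrophosphate-dependent phosphofructokinase subunit PFP-ALPHA (64 TPM in LP shoots and 77.8 TPM in CK shoots) and the non-phosphorylating dehydrogenase GAPN (161 TPM in LP and 274 TPM in CK, log2 ratio -0.77) were within the rule.

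Between 40.4% and 54.9% of the contigs in each list of DNA replication and cell division were lower. Of 19 histone contigs 0 were higher and 10 lower (52.6%), with a median of -1.05. Of 94 DNA replication contigs 4 were higher and 47 lower (50%), with a median of -0.96. Kinesins, tubulins and division plane proteins, 113 contigs, had 1 higher and 62 lower (54.9%), with a median of -1.17, and 47 cyclin and mitotic kinase contigs had 4 higher and 19 lower (40.4%), with a median of -0.64. The 14.1% of all genes that were lower is the background to these shares. The sum of the markers of dividing cells was 65.4 TPM in LP shoots and 115 TPM in CK shoots, and its part in these counts was not tested. These markers, MCM2 and CYCB1-2 among them, are replication and division genes themselves, so their sum is no separate measure.

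The histones separated by kind. A histone H2A.1 contig had 25.5 TPM in LP shoots and 321 TPM in CK shoots, 12.7-fold lower. Histone H3.2 (HTR2), made during DNA replication, was lower in each of 4 contigs, by 5.55-fold to 8.32-fold, with 20.5 to 71 TPM in LP shoots and 169 to 452 TPM in CK shoots; the contig of 567 bp was added after its value was seen. Histone H3.3 (HTR4), which is placed on chromatin independently of replication, was within the rule at 376 TPM in LP shoots and 508 TPM in CK shoots (log2 ratio -0.45), as was histone H1 at 232 TPM in LP and 346 TPM in CK (-0.59).

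Of the replication proteins, MCM4 (550 bp), a subunit of the replicative helicase, had 0.48 TPM in LP shoots and 31.2 TPM in CK shoots. A contig of the MCM2 subunit (OsI_36121, 1255 bp) had 7.98 TPM in LP shoots and 39.5 TPM in CK shoots, 5-fold lower. The subunits of replication protein A, which coats single-stranded DNA, were lower as well, RPA1B 9.71-fold and RPA2A 8.15-fold. ORC6, of the origin recognition complex, had 156 TPM in LP shoots and 362 TPM in CK shoots.

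Among division genes, the kinase CDC2C had 3.8 TPM in LP shoots and 48.9 TPM in CK shoots, 13-fold lower, and the D-type cyclin CYCD3-3, which promotes entry into the cycle, had 13.1 TPM in LP and 73.7 TPM in CK. The spindle checkpoint protein BUBR1 was 8.56-fold lower, and the kinesin KIN4C, at 2.36 TPM in LP shoots and 61.1 TPM in CK shoots, 26.1-fold lower. The tubulins TUBA2 (40.8 TPM in LP shoots and 263 TPM in CK shoots) and TUBB2 (20.6 TPM in LP and 86.6 TPM in CK) and the phragmoplast protein MAP65-3 (27.8 TPM in LP and 58.6 TPM in CK) were lower too. CKS1, a small subunit of cyclin-dependent kinase complexes, was 2.19-fold lower, and the microtubule protein SP1L1 had 436 TPM in LP shoots and 698 TPM in CK shoots, within the rule. The members on the other side included inhibitors of the cycle. SMR6, an inhibitor of cyclin-dependent kinases, had 25.9 TPM in LP shoots and 5.29 TPM in CK shoots, 4.85-fold higher, and SMR9 had 12 TPM in LP and 3.27 TPM in CK. The kinesin KIN14C (1603 bp) was the only kinesin-list contig called higher, at 12.5 TPM in LP shoots and 5.4 TPM in CK shoots, though the sum over its name had a log2 ratio of -0.65. Not all mitotic genes were lower: CYCB1-2 was level at 60.2 TPM in LP shoots and 61.9 TPM in CK shoots. In roots, where 35.1% of all genes were higher and 25.3% lower under LP, the replication list gave 25 of 55 contigs higher and 17 lower, with a median of 0.54, and the kinesin list 15 of 62 higher and 28 lower, with a median of -0.63. Whether roots and shoots differ in these lists was not tested.

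Most ribosomal protein contigs lay within the rule, with medians below 0. Of 38 plastid ribosomal protein contigs 0 were higher and 12 lower (31.6%), with a median of -0.72, and the median over contigs of 1000 bp or more was -0.26. At4g17560, the L19 protein of the plastid large subunit, had 146 TPM in LP shoots and 493 TPM in CK shoots, and RPL13, RPL12 and RPL21 were 2.15-fold to 2.47-fold lower. RPL1, of the same subunit, was level at 139.8 TPM in LP shoots and 159 TPM in CK shoots. Of 99 cytosolic ribosomal protein contigs 4 were higher and 9 lower (9.09%), less than the 14.1% of all genes, yet the median was -0.47 and their TPM summed to 9966 in LP shoots and 13583 in CK shoots. RPL17B, with 507 TPM in LP shoots and 691 TPM in CK shoots, and RPL7B, with 339.7 TPM in LP and 419.6 TPM in CK, show this small difference.

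Regulators of leaf and meristem growth gave 9 higher and 28 lower contigs of 89 (10.1% and 31.5%), against 15.1% and 14.1% of all genes. Their median was -0.31. The YABBY factors, which set the lower side of the leaf blade, were lower, YAB1 at 9.44 TPM in LP shoots and 65.5 TPM in CK shoots and YAB5 at 67.3 TPM in LP and 157 TPM in CK. ANT, an AP2 factor that keeps organ cells dividing, had 20.5 TPM in LP shoots and 55.1 TPM in CK shoots in a contig of 1164 bp. The related AIL1 was higher instead, at 95.4 TPM in LP shoots and 35.6 TPM in CK shoots, and in roots it had 182 TPM under LP and 5.27 TPM under CK. The TCP factors TCP2 and TCP4, which restrain growth of the leaf margin in Arabidopsis, were 3.01-fold and 2.36-fold lower. SRS5 (706 bp), of a family that promotes auxin synthesis, had 0.68 TPM in LP shoots and 51.8 TPM in CK shoots. ERECTA, a receptor kinase of stem growth and stomatal spacing, had 14.5 TPM in LP shoots and 63.9 TPM in CK shoots, and the homeodomain factor ATHB-14, of the upper leaf side, had 18.9 TPM in LP and 67.1 TPM in CK. Markers of the shoot meristem, ANT and CLV1, summed to 55.2 TPM in LP shoots and 131 TPM in CK shoots, with 0 of 5 contigs higher and 4 lower.

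**Figure D4:**
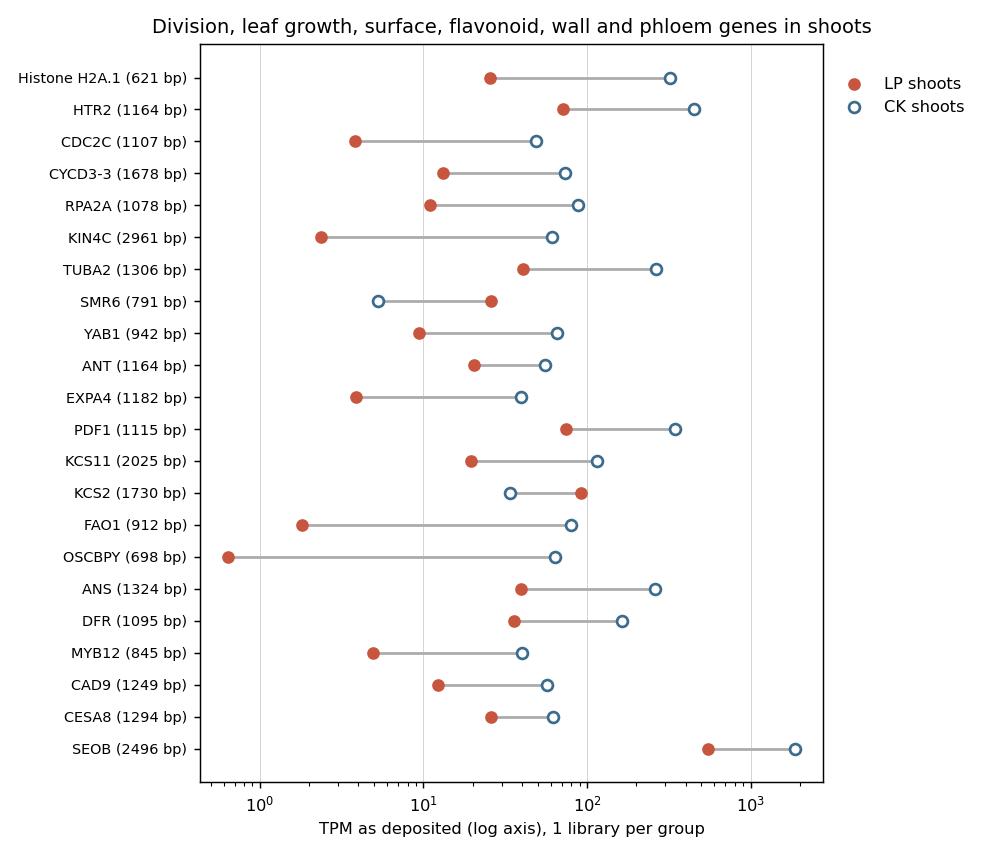
TPM in LP shoots (filled red) and CK shoots (open blue) on a log axis for 22 named contigs of cell division, leaf growth, surface lipids, flavonoids, walls and phloem, 1 library per group. CK lies to the right except for the inhibitor SMR6 and the elongase KCS2. The contigs drawn were picked after their values were seen. Contigs of these kinds that were higher in LP shoots, such as AIL1, BAN, XTH30, CSLE6, CSLG3 and GLIP1, are not drawn.

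Genes of the plant surface were lower in a greater share than the 14.1% of the whole set. Of 95 wax, cutin and surface lipid contigs 10 were higher and 42 lower (44.2%), with a median of -0.86. PDF1, a protein of the protoderm, had 74.3 TPM in LP shoots and 344 TPM in CK shoots, 4.67-fold lower, and the epidermal homeodomain factor HDG1 had 21.7 TPM in LP and 71.9 TPM in CK. The elongases of very-long-chain fatty acids split: KCS11 had 19.6 TPM in LP shoots and 115 TPM in CK shoots, whereas KCS2 was 2.67-fold higher, at 91.4 TPM in LP and 33.9 TPM in CK. FAO1, a long-chain alcohol oxidase, was 44.5-fold lower, at 1.81 TPM in LP shoots and 79.8 TPM in CK shoots. Of the GDSL lipases in this list, EXL3 had 0.4 TPM in LP shoots and 35.5 TPM in CK shoots and At5g33370 had 37.1 TPM in LP and 238 TPM in CK, but GLIP1, which acts in defence in Arabidopsis, was 3.62-fold higher. The markers of epidermis and cuticle summed to 178 TPM in LP shoots and 492 TPM in CK shoots, with PDF1 alone at 74.3 TPM in LP and 344 TPM in CK. Their part in these counts was not tested. Several of these markers, PDF1 among them, are surface genes of the kind listed here, so the sum is no separate measure.

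Fatty acid synthesis, which feeds these lipids, had 1 contig higher (3.7%) and 12 lower (44.4%) of 27, with a median of -0.79. For all genes these shares were 15.1% and 14.1%. Both subunits of ATP-citrate lyase, which makes cytosolic acetyl-CoA, were lower: ACLA-1 had 161 TPM in LP shoots and 463 TPM in CK shoots, and ACLB-2 had 68.4 TPM in LP and 266 TPM in CK. The plastid enoyl reductase MOD1 and the acyl carrier protein ACP1 were 2.66-fold and 2.36-fold lower. Triterpenoid and sterol enzymes gave 1 higher and 9 lower of 29 (31%). Beta-amyrin synthase (OSCBPY, 698 bp) had 0.64 TPM in LP shoots and 63.6 TPM in CK shoots, a log2 ratio of -5.31. Squalene monooxygenase (2048 bp), the step before the triterpene cyclases, was 3.51-fold lower. A P450 contig named CYP87A3 had 48.2 TPM in LP shoots and 598 TPM in CK shoots, 12.5-fold lower, while CYP716B1 was within the rule at 531 TPM in LP and 409 TPM in CK.

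Flavonoid enzymes were divided, with 8 of 42 contigs higher (19%), 15 lower (35.7%) and a median of -0.47. All genes stood at 15.1% higher and 14.1% lower. The enzymes of the late steps toward anthocyanins and condensed tannins were lower in their most abundant contigs. Dihydroflavonol reductase DFR (1095 bp) had 36 TPM in LP shoots and 164 TPM in CK shoots, ANS, the next enzyme, had 39.5 TPM in LP and 260.1 TPM in CK, and the anthocyanidin reductase ANR had 46.9 TPM in LP and 204 TPM in CK. Summed over its name, however, DFR was level, with a log2 ratio of 0.07. CHI3, a chalcone isomerase, was 3.2-fold lower. A contig named after MYB12, an activator of flavonol synthesis, had 4.9 TPM in LP shoots and 40.3 TPM in CK shoots, and a contig named after MYB3, a repressor of the pathway in Arabidopsis, had 16.2 TPM in LP and 108 TPM in CK. A further anthocyanidin reductase contig (BAN, 699 bp) was higher, at 72 TPM in LP shoots and 28.3 TPM in CK shoots. Over contigs of any length the list had 19 higher and 25 lower, with a median of -0.05.

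Wall genes were lower more often than higher. Of 54 lignin and phenylpropanoid contigs 5 were higher (9.26%) and 19 lower (35.2%), against 15.1% and 14.1% of all genes. Their median, however, was -0.16. PAL3, which opens the phenylpropanoid pathway, had 77.9 TPM in LP shoots and 206 TPM in CK shoots, the hydroxylase CYP98A2 had 95.8 TPM in LP and 217 TPM in CK, and CAD9, of the last step to lignin alcohols, had 12.2 TPM in LP and 56.7 TPM in CK. CCR1, the step before it, was level at 275 TPM in LP shoots and 293 TPM in CK shoots. Expansins and xyloglucan enzymes, which loosen walls, had 1 contig higher and 9 lower of 25 (36%), with a median of -0.65. EXPA4 had 3.85 TPM in LP shoots and 39.7 TPM in CK shoots, 10.4-fold lower, and EXPA8 (615 bp) had 1.4 TPM in LP and 27.7 TPM in CK. EXPB3 was 5.89-fold lower, and XTH30, the single member called higher, was 4.24-fold higher. The abundant XTH6 was level at 173 TPM in LP shoots and 199 TPM in CK shoots.

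Cellulose and xylan genes had 13 higher (16.7%) and 16 lower (20.5%) of 78, beside 15.1% and 14.1% of all genes. At 1000 bp or more 5 were higher (8.93%) and 12 lower (21.4%) of 56, where 10.8% of all genes of that length were higher and 10.7% lower. CESA8, of the cellulose synthase of secondary walls, was 2.41-fold lower in a contig of 1294 bp, with 25.9 TPM in LP shoots and 61.7 TPM in CK shoots. CESA1, of primary walls, was level at 69.6 TPM in LP shoots and 70.2 TPM in CK shoots. The arabinogalactan proteins FLA1, FLA8 and FLA12 were 3.25-fold to 3.83-fold lower. The cellulose synthase-like genes CSLE6 (30.3 TPM in LP shoots and 2.17 TPM in CK shoots) and CSLG3 (39.9 TPM in LP and 8.62 TPM in CK) were higher. NAC043, a switch of fibre wall thickening also known as NST1, had 1.6 TPM in LP shoots and 11.5 TPM in CK shoots. Pectin enzymes gave 7 higher and 21 lower of 76 (27.6%), among them the pectate lyases At3g07010, 3.62-fold lower, and At3g53190, 4.18-fold lower. Vascular and wood markers summed to 337 TPM in LP shoots and 609 TPM in CK shoots, and their part in the wall counts was not tested. Many of these markers, such as CESA8 and LAC17, are wall genes themselves, so the sum is no separate measure. SEOB (2496 bp), a sieve element protein chosen after its value was seen, had 550.4 TPM in LP shoots and 1869 TPM in CK shoots and supplied most of the phloem marker sum. NAC086, which in Arabidopsis drives the emptying of sieve elements, was 9.89-fold lower, at 6.59 TPM in LP shoots and 64.5 TPM in CK shoots.

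Few photosynthesis genes passed the rule. Of 29 light harvesting and photosystem contigs 1 was higher and 2 lower (6.9%), under the 14.1% of all genes, but the median was -0.38 and the sum was 19312 TPM in LP shoots and 26768 TPM in CK shoots. The antenna protein LHCB4.2 had 2074 TPM in LP shoots and 2925 TPM in CK shoots (log2 ratio -0.51), and the oxygen-evolving protein PSBQ2 had 2119 TPM in LP and 2919.6 TPM in CK (-0.48). PSB28, an assembly factor of photosystem II, was 2.44-fold lower. Calvin cycle and photorespiration genes had 6 higher and 6 lower of 38 (15.8% each), near the 15.1% and 14.1% of all genes. Their median was -0.02. A contig of the carbonic anhydrase BCA1 (930 bp) had 65.8 TPM in LP shoots and 0.14 TPM in CK shoots, which is about 3 fragments, while the main BCA1 contig (1221 bp) had 697 TPM in LP and 953 TPM in CK, and the sum over the name had a log2 ratio of -0.34. Some abundant photosynthesis contigs matched neither Juglans nor an Arabidopsis entry and lie outside these counts. Of 7 such contigs of 500 bp or more, 6 had less TPM in LP shoots than in CK shoots, but 1 passed the rule as lower and 1 as higher. They summed to 7530.3 TPM in LP shoots and 12418 TPM in CK shoots. The largest, a Rubisco small subunit (RBCS1, 830 bp), had 4604 TPM in LP shoots and 7979 TPM in CK shoots (log2 ratio -0.81), and the antenna protein CAB13 had 1058 TPM in LP and 1842 TPM in CK (-0.81). PSBT was the lower one, at 70.1 TPM in LP shoots and 144 TPM in CK shoots, and PSBR the higher one, at 7.83 TPM in LP and 1.13 TPM in CK.

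Chlorophyll and carotenoid synthesis gave 1 higher (2.63%) and 2 lower (5.26%) of 38, under the 15.1% and 14.1% of all genes. The median was -0.40. The magnesium chelatase subunit CHLH was level at 384 TPM in LP shoots and 336 TPM in CK shoots, CRD1, a later step, had 427 TPM in LP and 592 TPM in CK, and HEME1 (620 bp), an early step, was 6.26-fold lower. Genes of chlorophyll breakdown and senescence had 4 higher and 2 lower of 17 (23.5% and 11.8%), with a median of 0.43. NOL, a chlorophyll b reductase, had 45.9 TPM in LP shoots and 18.3 TPM in CK shoots, and the senescence-associated SAG101 had 18 TPM in LP and 5.42 TPM in CK. A dormancy-associated protein (At1g54070) was 8.11-fold higher, at 204 TPM in LP shoots and 24.9 TPM in CK shoots. PAO, which opens the chlorophyll ring, was within the rule at 134 TPM in LP shoots and 84.6 TPM in CK shoots (log2 ratio 0.64).

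Genes of soluble sugars were higher more often than lower, though most lay within the rule. Of 53 sucrose, trehalose and raffinose contigs 18 were higher (34%) and 3 lower (5.66%), with a median of 0.58. The shares over all genes were 15.1% and 14.1%. Galactinol synthase GOLS1, which starts raffinose synthesis, was higher in both named contigs, with 536 TPM in LP shoots and 229 TPM in CK shoots for that of 1366 bp and 156 TPM in LP and 44.3 TPM in CK for that of 1331 bp. RFS1, a galactosyltransferase of the same pathway, was instead 5.29-fold lower. TPS6, of the trehalose-phosphate synthase family, was at the rule in both contigs, with 79.5 TPM in LP shoots and 38.5 TPM in CK shoots (1865 bp) and 76.9 TPM in LP and 36.8 TPM in CK (1942 bp). The trehalose-phosphate phosphatase TPPF was 2.47-fold lower. Starch genes gave 4 higher and 3 lower of 42, with a median of 0.12; the plastid amylase AMY3 was 2.38-fold higher, and the inactive beta-amylase BAM9, at 282 TPM in LP shoots and 145 TPM in CK shoots, came just under the rule (0.94). Among 54 sugar transporters 11 were higher (20.4%) and 3 lower. SWEET4 had 30.5 TPM in LP shoots and 1.79 TPM in CK shoots, 16.9-fold higher, the hexose importer STP13 had 34 TPM in LP and 7.82 TPM in CK, and SWEET16, a carrier of the vacuole membrane, was 3.03-fold lower.

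Of 62 nitrate and ammonium contigs 20 were higher (32.3%), 6 lower (9.68%) and 36 within the rule, with a median of 0.43. The shares over all genes were 15.1% higher and 14.1% lower. NRT3.1, the partner protein of high-affinity nitrate importers, had 380.4 TPM in LP shoots and 129 TPM in CK shoots, 2.92-fold higher, and asparagine synthetase AS1 had 84.5 TPM in LP and 16 TPM in CK. Members of the NPF family lay on both sides, NPF5.6 3.11-fold higher and NPF5.10 15.4-fold lower. The cytosolic glutamine synthetase GS1-1 was level at 409 TPM in LP shoots and 316 TPM in CK shoots.

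LP medium held more sulfate than CK medium, since K2SO4 made up its potassium. Of 22 sulfate contigs 3 were higher (13.6%) and 1 lower (4.55%), beside 15.1% and 14.1% of all genes. SULTR3;1 (895 bp) had 14.2 TPM in LP shoots and 0.44 TPM in CK shoots, 32-fold higher, and SULTR3;5 had 8.82 TPM in LP and 1.88 TPM in CK. The member called lower, MOT2, is named as a molybdate transporter, at 96.2 TPM in LP shoots and 328 TPM in CK shoots. Phosphate and sulfate supply changed together between the media, so their effects cannot be told apart.

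Iron and zinc genes gave 14 higher and 12 lower of 76 (18.4% and 15.8%), near the 15.1% and 14.1% of all genes. At 1000 bp or more 8.33% were higher and 11.1% lower. Of all genes of that length 10.8% were higher and 10.7% lower. BHLH100, a factor induced by iron shortage in Arabidopsis, was 5.53-fold higher in LP shoots (28.1 TPM, against 5.03 TPM in CK shoots) and was listed at 0 in LP roots (8.83 TPM in CK roots). The vacuolar iron importer VIT1 was 2.75-fold lower, the metal-binding HIPP26 was 2.97-fold higher, and MTP10, of a family of manganese and other metal carriers, was 2.07-fold higher. Potassium and calcium carriers had 15 higher (18.8%) and 2 lower (2.5%) of 80, with a median of 0.34, and at 1000 bp or more 6 of 53 were higher (11.3%) and 2 lower (3.77%). CAX3, which loads calcium into the vacuole, had 395 TPM in LP shoots and 113 TPM in CK shoots, 3.46-fold higher, and the calcium pump ACA9 was 2.34-fold higher. The potassium transporters differed, POT4 2.2-fold higher and POT2 3.46-fold lower. Aquaporins gave 3 higher (20%) and 2 lower (13.3%) of 15, and PIP2-2 had 316 TPM in LP shoots and 108 TPM in CK shoots.

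Strigolactone genes were higher or within the rule, with 4 of 17 contigs higher (23.5%) and 0 lower, with a median of 0.40. Among all genes 15.1% were higher and 14.1% lower. CYP711A1, also called MAX1, a late enzyme of strigolactone synthesis, had 25.8 TPM in LP shoots and 2.59 TPM in CK shoots, 9.85-fold higher. The receptor named D14 had 17.2 TPM in LP shoots and 4.94 TPM in CK shoots, its relative DAD2 had 178 TPM in LP and 84.7 TPM in CK, and SMXL6, a repressor that the receptor removes, had 38.9 TPM in LP and 18.2 TPM in CK. D27, the first enzyme of the pathway, was within the rule at 37.8 TPM in LP shoots and 55.7 TPM in CK shoots. In roots D14 was lower, at 0.02 TPM under LP and 8.99 TPM under CK.

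Abscisic acid genes had 6 higher (19.4%) and 1 lower (3.23%) of 31, next to 15.1% and 14.1% of all genes. Their median was 0.54, and over contigs of 1000 bp or more it was 0.34. The receptor PYL8 was 2.34-fold higher, while the kinase SRK2A was 2.29-fold lower, with a log2 ratio of 0.14 for the sum over its name. The factor ATHB-7, induced by abscisic acid in Arabidopsis, had 32.1 TPM in LP shoots and 4.06 TPM in CK shoots, 7.82-fold higher. Gibberellin and brassinosteroid genes gave 8 higher and 5 lower of 36, with the gibberellin receptor GID1B at 58.4 TPM in LP shoots and 16.2 TPM in CK shoots and the gibberellin-induced GASA6 at 63.5 TPM in LP and 167 TPM in CK. Auxin genes gave 8 higher and 12 lower of 80, with a median of -0.14; the abundant auxin-binding protein ABP19A was 3.22-fold lower, at 461 TPM in LP shoots and 1473 TPM in CK shoots. Ethylene and jasmonate genes had 14 higher (25.9%) and 6 lower (11.1%) of 54, but at 1000 bp or more 4 higher and 4 lower of 38 (10.5% each), next to 10.8% and 10.7% of all genes of that length. The lipoxygenase LOX2.1, of jasmonate synthesis, was 2.2-fold higher, and TIFY5A, a repressor of jasmonate responses, was 6.68-fold lower. Cytokinin genes had 4 higher and 4 lower of 41 (9.76% each), under the shares of all genes.

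Receptors of the immune system were higher more often than lower at 500 bp or more, where 15.1% of all genes were higher and 14.1% lower, and these lists are rich in short contigs. Of 268 NB-LRR resistance protein contigs 106 were higher (39.6%) and 27 lower (10.1%), with a median of 0.72. Of the 277 contigs in the list, 238 were under 1000 bp, and among the longer ones 7 were higher (17.9%) and 3 lower (7.69%) of 39, with a median of 0.29, where 10.8% of all genes of that length were higher and 10.7% lower. The most extreme of those named, RPPL1 (842 bp), had 61.4 TPM in LP shoots and 2.56 TPM in CK shoots, and in roots 7.03 TPM under LP and 96.7 TPM under CK. Receptor-like kinases of the lectin, wall-associated and cysteine-rich classes had 87 higher (38.2%) and 27 lower (11.8%) of 228, with a median of 0.61. At 1000 bp or more they had 18 higher (30.5%) and 12 lower (20.3%) of 59, with a median of 0.39. WAK2 was 35.4-fold higher, at 47.6 TPM in LP shoots and 1.33 TPM in CK shoots, and CRK10 had 83.3 TPM in LP and 10.1 TPM in CK. Leucine-rich receptor kinases had 69 higher (27.4%) and 46 lower (18.3%) of 252, but at 1000 bp or more the lean turned, with 15 higher (13.3%) and 22 lower (19.5%) of 113. Pathogenesis-related proteins did not share this direction, with 21 higher and 24 lower of 91 and sums of 3148 TPM in LP shoots and 5232 TPM in CK shoots. The polyphenol oxidase contig (738 bp), at 200.4 TPM in LP shoots and 1279 TPM in CK shoots, and MLP423, at 94.3 TPM in LP and 396 TPM in CK, were the lower members named.

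**Figure D5:**
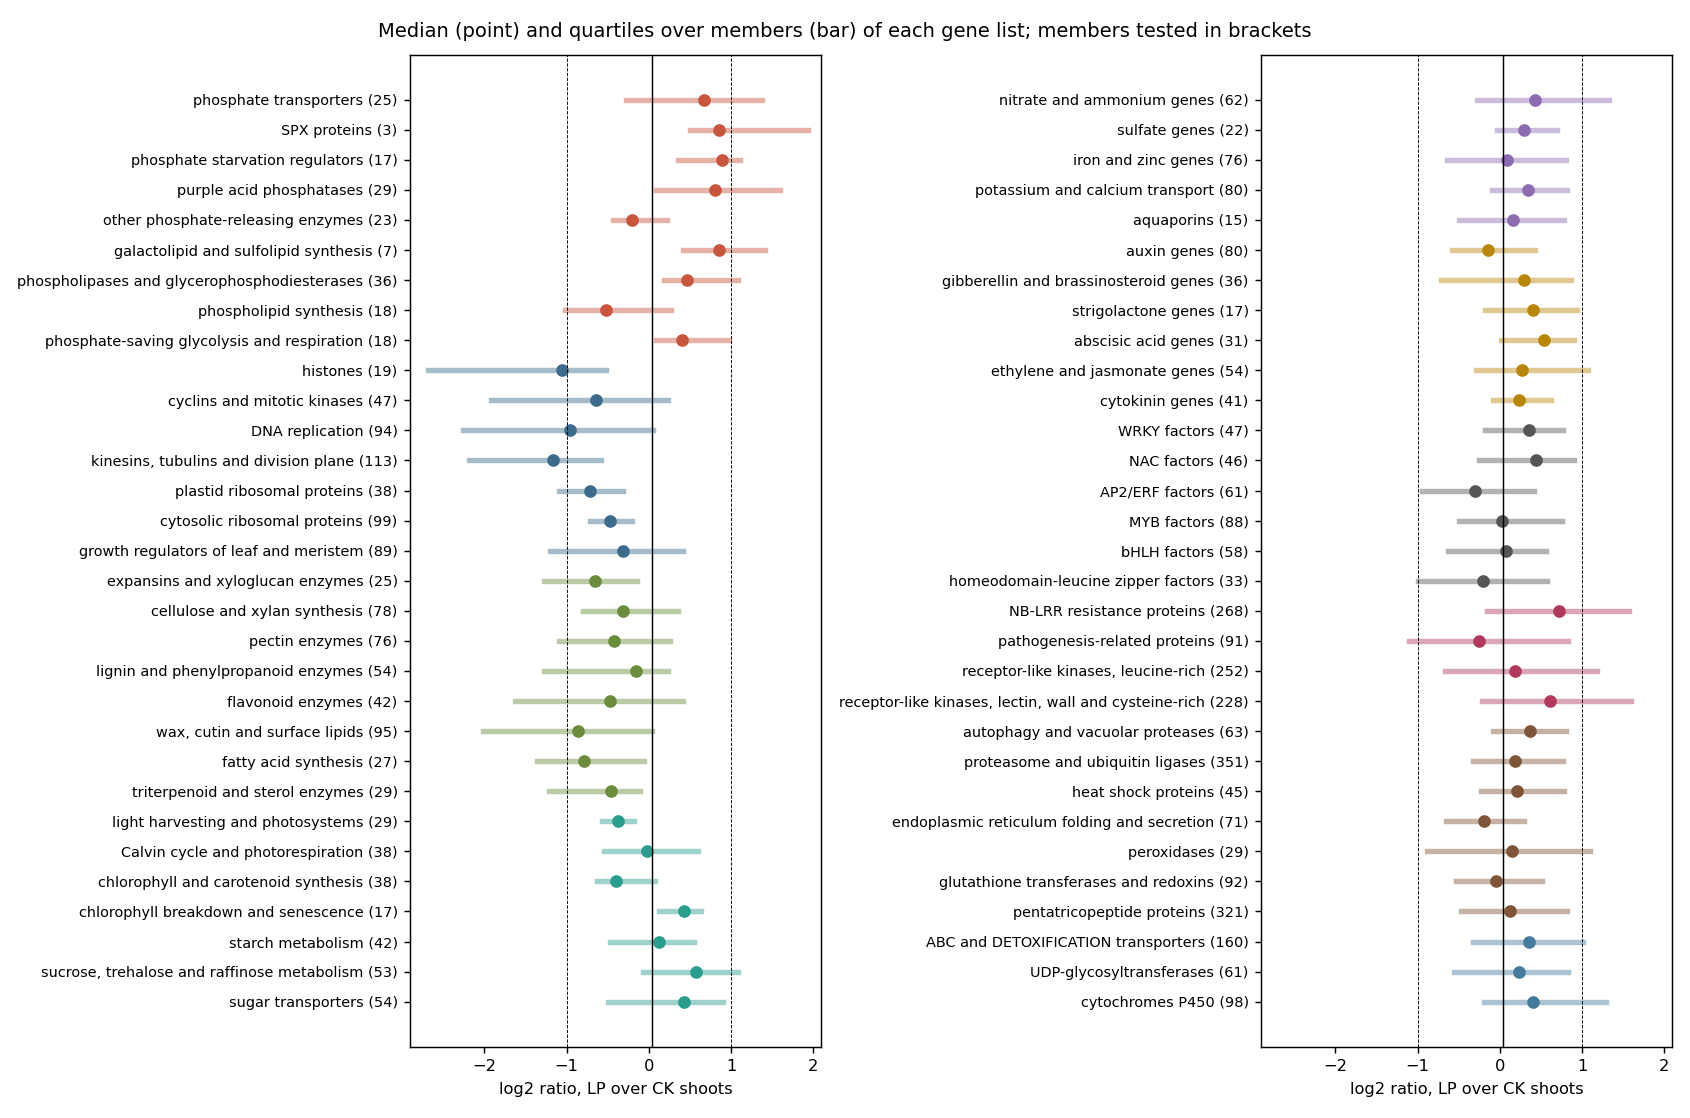
Points are the median log2 ratio, LP over CK shoots, of each of 62 gene lists. Bars run from the lower to the upper quartile over the members of a list. Brackets give the number of members that could be called, whether or not they passed the rule. The solid line is the median of all genes and the dashed lines mark the 2-fold rule. Of 9 phosphate lists 7 lie to the right (0.67 for transporters, 0.80 for purple acid phosphatases) and 2 to the left (-0.20 for other phosphate-releasing enzymes, -0.52 for phospholipid synthesis); division lists lie to the left (-1.05 for histones, -1.17 for kinesins and tubulins).

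Factor families outside these pathways held single large differences, beside a background of 15.1% higher and 14.1% lower. WRKY factors had 9 higher (19.1%) and 5 lower (10.6%) of 47, with WRKY11 4.3-fold higher and WRKY27 9.15-fold lower. NAC factors had 9 higher (19.6%) and 4 lower (8.7%) of 46, and NAC047, known for roles in leaf movement and senescence, had 23 TPM in LP shoots and 2.04 TPM in CK shoots. Of 58 bHLH factors 7 were higher and 7 lower (12.1% each), and BHLH137 had 46.8 TPM in LP shoots and 4 TPM in CK shoots, 11.6-fold higher. MYB factors had 18 higher (20.5%) and 15 lower (17%) of 88. AP2/ERF factors had 11 higher (18%) and 14 lower (23%) of 61, and homeodomain-leucine zipper factors had 3 higher (9.09%) and 8 lower (24.2%) of 33.

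Genes of protein turnover and detoxification did not share one direction, beside 15.1% higher and 14.1% lower of all genes. Autophagy and vacuolar protease genes had 9 higher (14.3%) and 3 lower (4.76%) of 63, with a median of 0.37; ATG101, of the autophagy initiation complex, was 2.48-fold higher and the vacuolar protease APA1 had 131 TPM in LP shoots and 47.8 TPM in CK shoots. Proteasome subunits and ubiquitin ligases had 59 higher (16.8%) and 30 lower (8.55%) of 351. The ubiquitin ligase MIEL1 was 4.15-fold higher, at 173 TPM in LP shoots and 41.2 TPM in CK shoots. Chaperones of the endoplasmic reticulum were lower in their abundant members, with calreticulin at 167 TPM in LP shoots and 411 TPM in CK shoots and an endoplasmin contig (HSP90, 2739 bp) at 152 TPM in LP and 387 TPM in CK, in a list with 5 higher and 8 lower of 71 and a median of -0.19. Heat shock proteins gave 9 higher (20%) and 5 lower (11.1%) of 45, and peroxidases 9 higher (31%) and 7 lower (24.1%) of 29. Glutathione transferases and redoxins gave 11 higher (12%) and 9 lower (9.78%) of 92. Catalase CAT2 had 606 TPM in LP shoots and 284 TPM in CK shoots, and a glutathione transferase listed as HSP26-A was 14.3-fold higher. Pentatricopeptide proteins, which process organelle RNA, had 63 higher and 44 lower of 321, with a median of 0.12, but their TPM summed to 3645 in LP shoots and 8942 in CK shoots. That gap lay in a single contig, named PCMP-H89 (619 bp), at 449 TPM in LP shoots and 5805 TPM in CK shoots. Cytochromes P450 had 31 higher (31.6%) and 11 lower (11.2%) of 98, while their TPM summed to 3326 in LP shoots and 3562 in CK shoots. CYP82C2 was 7.94-fold higher and CYP705A20 10.1-fold lower. Of 160 ABC and DETOXIFICATION transporters 41 were higher (25.6%) and 24 lower (15%), and of 61 glycosyltransferases 11 were higher and 8 lower. The glycosyltransferase UGT83A1 had 50.3 TPM in LP shoots and 565 TPM in CK shoots, and the transporter ABCB14 had 196 TPM in LP and 729 TPM in CK.

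The response of shoots was set beside that of roots of the same treatments, whose LP column was divided by 0.6412, the median ratio over 12315 genes. In roots, 14610 plant-matched contigs of 500 bp or more could be called, of which 35.1% were higher and 25.3% lower under LP. Of 14448 genes that could be called in both organs, 2162 were higher in LP shoots. Of these 2162, 1060 (49.0%) were also higher in LP roots and 460 (21.3%) lower. Of 1638 genes lower in LP shoots, 649 (39.6%) were lower in LP roots and 536 (32.7%) higher. Over all 14448 genes, 34.9% were higher and 25.3% lower in LP roots. Read the other way, 21.0% of the 5038 root-higher genes were higher in LP shoots and 10.6% lower. Of the 3662 root-lower genes 17.7% were lower in LP shoots and 12.6% higher. Over all 14448 genes, 15.0% were higher and 11.3% lower in LP shoots.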

How the data were processed

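Poly(A) RNA of stem and leaf, mixed, was sequenced as read pairs from 1 LP and 1 CK shoot library, per the labels' protocols. The submitters' processing notes name cutadapt 1.9 and FastQC. Which assembler, aligner and quantifier were run is not given in the sources used here. Each row of the deposited table holds an assembled gene, its TPM in each library, a length and protein annotations, per the file headers. The authors' TPM sum to 999275 in LP shoots and 999721 in CK shoots. TPM are shares of a total, so RNA from other sources lowers all other values of a library.

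From these values, the median-ratio rescaling, log2 ratios and the size rule were computed with Python 3.11.15, pandas 2.3.3 and NumPy 2.4.6, with no test. The steps were tested on simulated data. Depth was read from the low values of contigs near 500 bp, which lie on whole multiples of 1 fragment within 0.0065 TPM for 98.7% of 76 values in LP shoots and 93.9% of 49 in CK shoots; this covers counting error only. The 62 lists were built from patterns in protein names, and a contig can be in several.

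The members and lists were chosen with earlier results of these data known. Named genes are, per list, the 4 most abundant higher, the 4 most abundant lower and the 3 most abundant other members, transporters, SPX proteins and regulators of at least 5 TPM, and the 12 highest and 12 lowest ratios of at least 10 TPM. This gave 635 contigs, and 220 of them were picked for the text after their values were seen, with 5 more (PAP24, both PAP17 contigs, SEOB, the HTR2 contig of 567 bp) outside the rule. Contigs carry their Swiss-Prot name, and the other annotation can name another member or family. A contig named ANT whose annotations are a mitochondrial ADP,ATP carrier was left out of the meristem markers. One result is not reported here. Alternatives were another pseudocount, minimum, rescaling, contig length, threshold, sums by protein name and, added after seeing the data, the Juglans match alone.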

Additional observations from a re-analysis of the deposited data

Results flagged for a closer look

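Of the 225 contigs named, 34 were called in opposite directions in the shoots and the roots of the same treatments. The ratios are LP over CK, 1 library per group, and the difference between organs was not tested in any of them. In roots 35.1% of all genes were higher and 25.3% lower. Among all genes that could be called in both organs, 460 of the 2162 higher in LP shoots (21.3%) were lower in LP roots. Of the 1638 lower in LP shoots, 536 (32.7%) were higher in LP roots. The named contigs were picked after their values were seen, so their counts do not stand for all genes. Higher in LP shoots and lower in LP roots were 21 contigs.

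Among phosphate and lipid genes the root log2 ratio was -2.36 for PHT1-1 (2.74 in shoots), -1.27 for PHT1-3 (2.25), -2.46 for the long PHT1-4 contig (1.38), -1.07 for PHR2 (1.09), -1.40 for WRKY6 (1.11), -1.12 for PAP27 (1.88), -2.24 for the DGD1 contig of 574 bp (1.47) and -1.32 for the PPCK1 contig of 648 bp (2.73). Among nutrient, sugar and hormone genes it was -1.99 for the nitrate partner protein NRT3.1 (1.54), -3.30 for the iron factor BHLH100 (2.26), -1.12 for the hexose importer STP13 (1.98), -1.58 for the GOLS1 contig of 1331 bp (1.78) and -3.28 for the strigolactone receptor D14 (1.60). For the rest it was -2.32 for the chlorophyll b reductase NOL (1.27), -1.18 for the protease APA1 (1.42), -2.05 for CSLE6 (3.29), -1.98 for CSLG3 (2.07), -1.55 for KIN14C (1.07), -1.91 for the glutathione transferase HSP26-A (3.55), -1.52 for BHLH137 (3.24) and -3.03 for RPPL1 (4.12).

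Lower in LP shoots and higher in LP roots were 13 contigs. The root log2 ratio was 1.43 for acid phosphatase APS1 (-1.58 in shoots), 2.23 for the plastid ribosomal protein At4g17560 (-1.77), 1.83 for RPL21 (-1.29), 1.82 for PSB28 (-1.28), 4.12 for NAC086 (-3.12), 2.47 for the SEOB contig of 2496 bp (-1.78) and 4.28 for SWEET16 (-1.53). It was 3.90 for beta-amyrin synthase OSCBPY (-5.31), 2.26 for CYP87A3 (-3.62), 1.15 for CYP98A2 (-1.18), 1.89 for ABP19A (-1.69), 1.48 for PCMP-H89 (-3.70) and 2.56 for SRS5 (-4.98). Several of these stood low in roots: SEOB had 2.92 TPM in LP roots and was listed at 0 in CK roots, and ABP19A had 2.8 TPM in LP roots and 0.45 TPM in CK roots.

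Outside the plant-matched genes, 15 contigs named after yeast reading frames of the ribosomal DNA repeat summed to 11487 TPM in LP shoots and 3043 TPM in CK shoots, a ratio of 3.78. In roots they summed to 2209 TPM under LP and 2493 TPM under CK. Their part in the plant-matched ratios was not tested.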

How the results depend on the processing

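With 2492 genes higher and 2340 lower in LP shoots as reported, contigs of any length gave 5879 and 5127, contigs of 1000 bp or more 1025 and 1018, sums over contigs sharing a protein name 1295 and 1454, and a log2 threshold of 2 gave 648 and 719. The first 2 change how many genes are in the set and the sums merge contigs. The pseudocount of 0.1 TPM, both minimums, both other rescalings, the requirement of values above 0 in both libraries and the Juglans match alone kept both counts within 1.5 times. Of 62 lists, 9 had a median of 0.5 or more and 9 of -0.5 or less, and both numbers stayed within 1.5 times in all settings run; 14 list medians moved by more than 1.5 times at 1000 bp or more and 14 with sums by name. Among the 225 named contigs, the pseudocount, the unscaled values and any contig length changed no call; rescaling over all genes moved PPCC just below the rule. Sums by protein name turned 5 directions: BCA1 (930 bp) -0.34, DFR 0.07, KIN14C -0.65, PHT1-4 (610 bp) 0.67 and SRK2A 0.14, and took 30 others below the rule, among them PAP27, PAP26 (546 bp), WRKY6, SIZ1, CESA8 and PHT1-4 (2076 bp); here the sum includes other contigs of the name. No paired analysis was possible because each group is 1 library, and leaving out a library leaves no comparison. With 1 library per group, differences of any size cannot be told from differences between plants, and short contigs are limited by depth.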

Other observations

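Genes outside the plant-matched set made up 50071 of the table, and their TPM summed to 402615 in LP shoots and 361897 in CK shoots, a ratio of 1.11.

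Of the 225 contigs named above, 27 were higher in both LP shoots and LP roots and 40 were lower in both. Among all 14448 genes that could be called in both organs, 1060 were higher in both and 649 lower in both. The named contigs were picked after their values were seen, so their counts do not stand for all genes. MGD2, SQD2, PHO1-H10, both WRKY75 contigs and asparagine synthetase AS1 were among those higher in both organs. Lower in both were, among others, 3 of 4 replication histone H3.2 contigs, the expansins EXPA4 and EXPB3 and the methyltransferase NMT1. The named contigs of the anthocyanin enzymes DFR and ANS were also lower in both. Summed over its name, DFR was level in shoots. NMT1 had 0.03 TPM in LP roots and 34.4 TPM in CK roots, and SMR6, the cell cycle inhibitor, had 79.2 TPM in LP roots and 45.1 TPM in CK roots.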
